A study of Mus musculus with 32 samples.

Results

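The genes described here encode 7 mouse proteins known as methyl-CpG binding proteins or as close relatives of them: Mbd1, Mbd2, Mbd3, Mbd4, Mbd5, Mbd6 and Zbtb33. They were taken by symbol from a table of 5-methylcytosine (5mC) signal on 27179 genes, and all 7 were found there. The signal comes from MeDIP-seq, in which an antibody pulls down single-stranded DNA fragments that carry 5mC and the fragments are sequenced. The organs were brain, heart, kidney and liver of mice, flash-frozen (Frozen in the labels) or fixed in formalin and embedded in paraffin (FFPE). The labels name no other treatment or genotype, and strain, age, sex and number of animals were not stated in the material at hand. They list 16 samples of the 5mC antibody in 8 groups of 2, and 16 of unselected Input DNA, but the table has 1 column for each organ and preservation. Each of these 8 columns is called a library and was read as 5mC signal, since the deposited table is labelled as MeDIP-seq data. In the labels, replicates 1 and 2 carry different MeDIP-seq dates, and the column names do not say which replicate a column holds or whether it pools both.

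Methylated CpG sites are read by proteins that carry a methyl-CpG binding domain (MBD), or, in Kaiso, zinc fingers. MBD1 and MBD2 bind methylated CpG and recruit repressors, while MBD3, the closest relative of MBD2, binds it weakly in mammals, and each of MBD2 and MBD3 is part of a form of the chromatin remodelling complex NuRD. MBD4 is a DNA repair glycosylase that removes the base left when methylated cytosine deaminates. MBD5 and MBD6 keep the domain without known binding to methylated DNA and join the PR-DUB complex, which removes ubiquitin from histone H2A. Zbtb33 encodes Kaiso. The values here are the methylation signal of the genes' own DNA, and say nothing of how much of each protein the organs hold.

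Reads on all genes numbered 2164158 to 3699218 per library. A value is in CPM, reads scaled to a common library size by the authors, or in log2 CPM. The scaled size relative to the reads on genes was 1.09 and 1.10 in frozen and FFPE brain. In the same order it was 1.08 and 1.06 in heart, 0.956 and 0.978 in kidney, and 0.925 and 0.851 in liver. A lower factor gives a higher CPM from the same share of reads. The part of this scaling in the organ differences below was not tested. A bulk organ mixes cell types, so that another cell makeup and another methylation within the same cells cannot be told apart. The frozen kidney library stood apart: it had 0 reads on 2999 genes, against 880 to 2380 in the 7 others, and 56.2% of its counts from 1 to 20 were even, against 48.7% to 51.8%. The organ labels were set against 10 marker genes for each organ's main cells. The median log2 signal on hepatocyte genes was 3.07 and 3.21 in the liver libraries and 4.39 to 5.15 elsewhere. On cardiomyocyte genes it was 4.63 and 4.85 in heart and 5.28 to 5.83 elsewhere, and on neuron genes 5.58 and 5.64 in brain and 6.04 to 6.40 elsewhere. Kidney genes did not set the kidney libraries apart, with 5.75 and 5.96 there and 5.76 to 5.96 elsewhere. Leukocyte genes ran from 5.46 and 5.17 in brain to 4.13 and 3.71 in liver, and endothelial genes from 6.25 and 6.01 in heart to 6.90 and 6.90 in liver, and their part in the organ differences below was not tested. Every marker gene had reads in every library.

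Tests came from limma, with organ and preservation as terms, on the log2 values of all 25982 genes that passed a minimum of 1 CPM in 2 libraries. A gene is called below where the Benjamini-Hochberg adjusted p over all those genes is under 0.05. No group has a second column, so a gene's own spread is how far its organ differences changed between frozen and FFPE tissue. limma draws this spread toward that of genes of like level, with 3 residual and a mean of 13.1 prior degrees of freedom. The tests thus rest mostly on the spread of other genes. Since the number of animals was not stated, the SE and p-values hold no known spread between animals. All 7 genes passed the minimum. Across them, 3 of 7 differed between organs by the moderated F-test: Mbd6 (adjusted p = 0.00393), Mbd3 (0.0327) and Mbd1 (0.0448). Of all genes tested 25.1% did so. Without any 1 of the brain, heart or liver libraries, 1 of the 7 passed this test, and of all genes 11.5% to 15.8% did. Their organ means spanned 1.498 (Mbd6), 1.08 (Mbd3) and 0.93 (Mbd1) on the log2 scale, and the median span was 0.93 over the 7 genes and 1.06 over all genes tested.

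**Figure D1:**
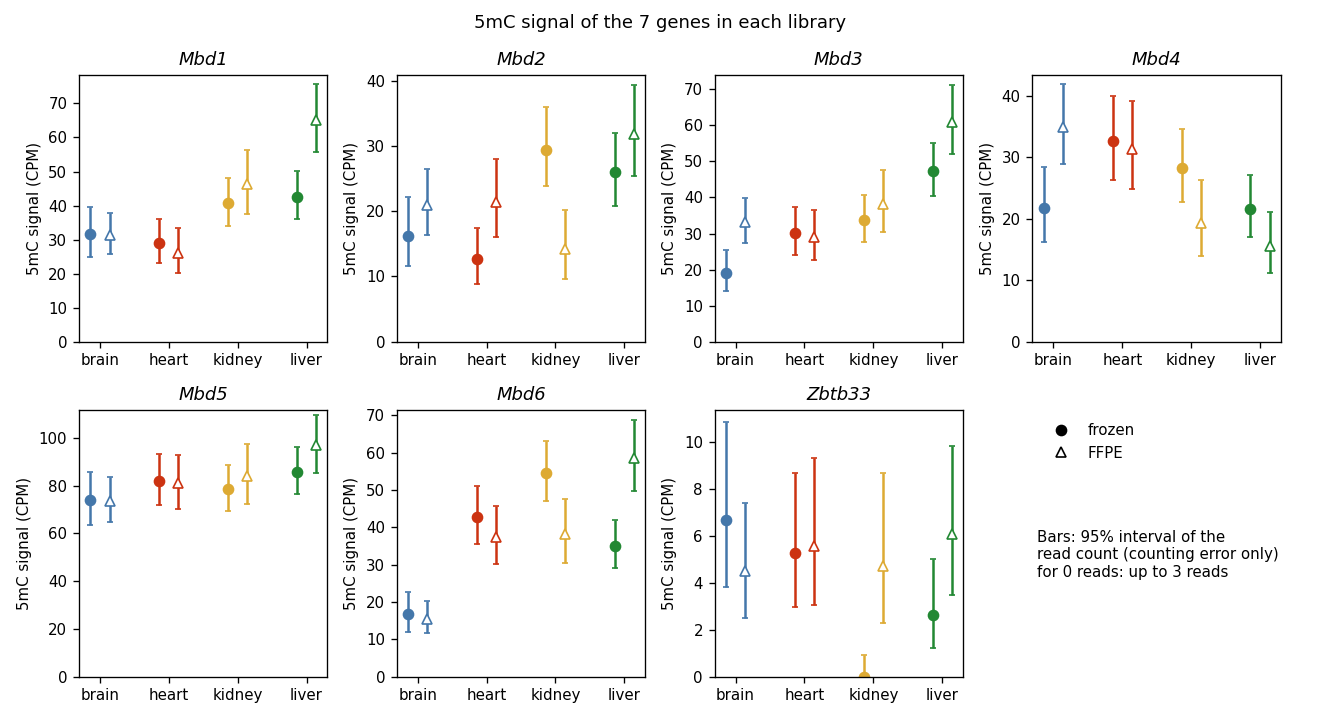
5mC signal in CPM (y axis) of each of the 7 genes in the 4 organs (x axis). Filled circles are frozen and open triangles FFPE libraries. Bars are the exact Poisson 95% interval of the read count, which covers counting error only. For 0 reads the bar runs up to a fixed limit of 3 reads. Both brain libraries lie below the 6 others for Mbd6, both liver libraries lie above the 6 others for Mbd3, and frozen kidney has 0 reads on Zbtb33.

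In liver, set against the mean of the 3 other organs, Mbd3 and Mbd1 were higher and no member was lower. Called higher were thus 2 of 7 genes, beside 11.8% of all genes tested (19.2% in either direction). The liver calls over all genes, 3056 higher and 1929 lower, became 4832 and 1240 with the libraries centred on their median, and 1256 and 1251 after quantile normalization. The difference was above 0 for 6 of the 7, with a median of 0.55 against -0.10 over all genes tested. In brain, Mbd6 was lower, no member was higher, and the median over the 7 was -0.21 against 0.11 over all genes tested. That is 1 of 7 genes, beside 12.8% of all genes called lower in brain (21.4% in either direction). The brain calls over all genes, 2238 higher and 3333 lower, became 1603 and 4875 with the libraries centred, 2471 and 2724 after quantile normalization, and 3969 and 3210 with voom precision weights. Each organ is compared with the mean of the others, so values in liver and brain are not independent of each other.

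Mbd3 (Entrez 17192, chromosome 10, 80392539 to 80399531, GRCm38.p6) carried 46 reads in frozen brain and 111 in FFPE brain, and, in the same order, 86 and 73 in heart, 111 and 81 in kidney, and 162 and 161 in liver. Scaled to library size this was 19.2 and 33.2 CPM in brain, 30.2 and 29.0 in heart, 33.7 and 38.3 in kidney and 47.3 and 61.0 in liver. Both liver libraries lay above the 6 others, and frozen brain was the lowest. Liver was 1.79-fold higher than the other organs (log2 difference 0.84 ± 0.22 SE, limma adjusted p = 0.0151). It was 2.12-fold higher than brain alone (the difference brain minus liver was -1.08 ± 0.27, adjusted p = 0.00774, with 28.5% of all genes called for that pair). The order of organ means was liver, kidney, heart and brain, and neighbours in this order did not differ by the test: kidney minus liver was -0.58 (95% interval -1.16 to 0.00075), heart minus kidney -0.28 (-0.86 to 0.30) and brain minus heart -0.23 (-0.81 to 0.35). The rise in liver was not called without the frozen liver (adjusted p = 0.138), FFPE liver (0.179) or FFPE heart library (0.0546), while the difference from the other organs ranged from 0.74 to 0.94 over the 8 fits that leave out a library. The pair with brain was not called without frozen brain (-0.78, adjusted p = 0.164), frozen liver (0.0573) or FFPE liver (0.0742).

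Mbd2 (Entrez 17191, chromosome 18, 70568225 to 70629134) gave 39 and 70 reads in frozen and FFPE brain, 36 and 54 in heart, 97 and 30 in kidney, and 89 and 84 in liver. That is 16.3 and 20.9 CPM in brain and 12.6 and 21.4 in heart. The organs overlapped: frozen kidney, at 29.4 CPM, was close to the liver libraries (26.0 and 31.8), and FFPE kidney, at 14.2, was close to frozen heart (12.6). No organ was called, and liver minus the others was 0.64 ± 0.33 (95% interval -0.06 to 1.34, adjusted p = 0.195). Without the frozen kidney library that difference was 0.89 and was called (adjusted p = 0.0188). Mbd2 and Mbd3 thus both had their highest organ mean in liver, at 28.9 and 54.2 CPM. So did Mbd1 (53.9 CPM) and Mbd5 (91.4), and Mbd6 was nearly level in liver and kidney (46.9 and 46.5). Mbd2 and Mbd1 both lie on chromosome 18, and their log2 values correlated at 0.52 over the 8 libraries.

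The other NuRD genes of a list of 12 were lower in brain for 4 and higher for 0, beside 12.8% of all genes called lower (median -0.58, with 0.11 over all genes tested). These were the remodelling ATPases Chd4 (-0.72 ± 0.13, adjusted p = 0.00190) and Chd3 (-0.55), and Mta3 (-0.69) and Mta1 (-0.71), of the metastasis-associated subunits. In liver 1 was higher, again Chd4 (0.91 ± 0.13, adjusted p = 0.000316), and 0 were lower, beside 11.8% of all genes called higher. For FFPE against frozen tissue Cdk2ap1 alone of the 12 was called (1.28 ± 0.26, adjusted p = 0.0178), beside 1.35% of all genes.

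Genes of the 8 enzymes that write or erase 5mC were lower in brain for 5 (12.8% of all genes tested were) and higher in liver for 4 (11.8% of all genes), with 0 called in the opposite directions. Their median was -0.51 in brain and 0.41 in liver, against 0.11 and -0.10 over all genes tested. Tet3, Tet1 and Tet2, which oxidize 5mC, were lower in brain (-1.04, -0.58 and -0.53) and higher in liver (0.84, 0.48 and 0.46). Dnmt3a, a de novo methyltransferase, was lower in brain (-0.67), and Dnmt1, the maintenance enzyme, was higher in liver (0.42). Such calls were found in some lists of cell markers and not in others. Of 10 neuron markers 5 were lower in brain and 3 higher in liver, and of 10 cardiomyocyte markers 1 and 4. These stand beside 12.8% and 11.8% of all genes, and in both lists 0 were called the other way. Of 10 kidney markers 0 were lower in brain and 1 was higher in liver. Of 6 endothelial markers 1 was higher in brain, and in liver 2 were higher and 1 lower. Of 6 leukocyte markers 2 were higher in brain and 2 lower in liver. Of 10 hepatocyte markers 5 were higher in brain and 9 lower in liver. Of all 25982 genes tested, 2238 were higher in brain and 1929 lower in liver.

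The promoter of Mbd3 is shown because the antibody binds methylated cytosine, which in most tissues stands before a guanine, and because this gene rose in liver. Capitals mark each CG. The sequence is from RefSeq (GRCm38.p6, chr10:80399482-80399781, minus strand, 250 bases before to 50 after the start), as are the other promoters below.
Mbd3: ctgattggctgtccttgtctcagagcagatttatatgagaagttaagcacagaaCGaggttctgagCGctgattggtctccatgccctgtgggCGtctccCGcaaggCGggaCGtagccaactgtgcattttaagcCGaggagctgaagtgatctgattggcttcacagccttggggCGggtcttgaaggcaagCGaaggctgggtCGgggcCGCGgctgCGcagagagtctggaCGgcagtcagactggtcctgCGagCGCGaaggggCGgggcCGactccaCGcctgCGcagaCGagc
It holds 22 CG, and 76.9% of the 32851 promoters of the same length hold fewer. The table of signal gives 1 value per gene, so that it cannot place reads at the promoter. A stretch TCCTGCNA, the letters of the known Kaiso binding site, was searched on both strands and occurs once here. It was in 1 of the 7 promoters matched to 5 of the genes, and in 4.96% of all promoters.

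Genes within 5 kb of the 7 were looked at after the data were seen, and 9 of 13 are in the table. Mex3d, which encodes an RNA-binding protein, lies 4887 bases from Mbd3. Its signal was 55.9 and 80.3 CPM in frozen and FFPE brain, 113 and 101 in heart, 217 and 157 in kidney, and 178 and 205 in liver. Mex3d was higher in liver (0.80 ± 0.17, limma adjusted p = 0.00427) and in kidney (0.73, adjusted p = 0.0458) and lower in brain (-1.21 ± 0.17, adjusted p = 0.000319). Both genes were thus high in liver, but Mex3d was also high in kidney, where Mbd3 differed from the other organs by 0.07 (adjusted p = 0.899). Uqcr11, a respiratory chain subunit gene 3465 bases on the other side, had 0 reads in all 8 libraries, which allows at most 3 reads in each.

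**Figure D2:**
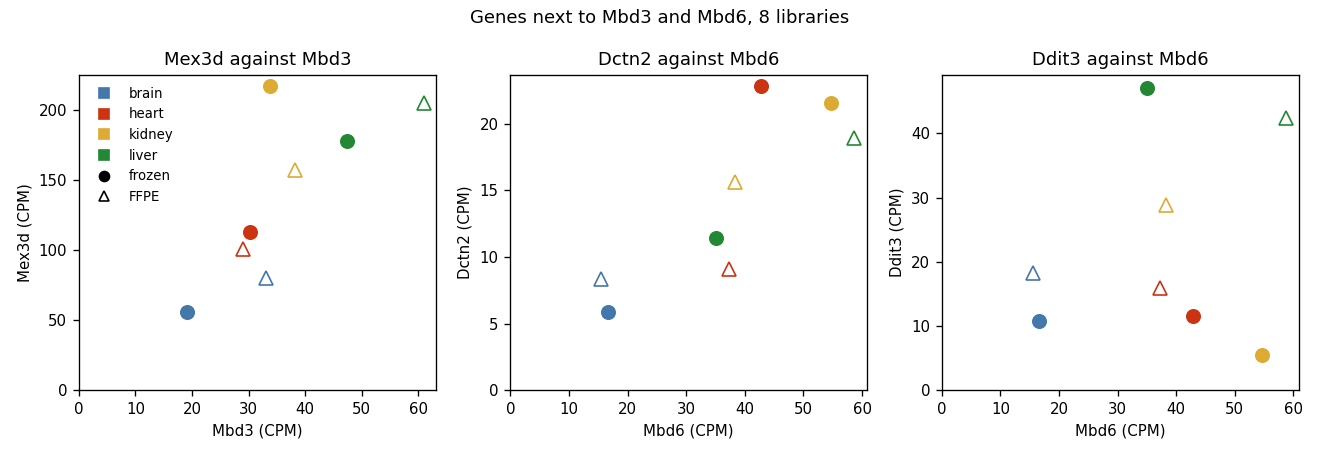
5mC signal in CPM of Mex3d against Mbd3 (left), and of Dctn2 and Ddit3 against Mbd6 (middle and right), with 1 point per library, coloured by organ; circles are frozen and triangles FFPE tissue. The brain libraries are lowest for Mex3d, and Ddit3 is highest in the liver libraries (47.0 and 42.4 CPM), while Mbd6 in frozen liver (35.1 CPM) lies below all heart and kidney libraries.

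Mbd1 (Entrez 17190, chromosome 18, 74267605 to 74282737) carried 76 and 105 reads in frozen and FFPE brain, 83 and 66 in heart, 134 and 98 in kidney, and 146 and 172 in liver. In CPM, heart was lowest at 29.1 and 26.2, brain followed at 31.7 and 31.4, kidney at 40.7 and 46.3, and liver at 42.6 and 65.2. Both heart libraries lay below the 6 others, as for 3.47% of all genes tested. Frozen liver lay between the 2 kidney libraries, and FFPE liver was above all. Mbd1 was 1.57-fold higher in liver than in the other organs (0.65 ± 0.21, limma adjusted p = 0.0439), at 0.35 in frozen and 0.95 in FFPE tissue. This call was lost without any 1 of the brain, heart or liver libraries (adjusted p = 0.0586 to 0.567) and under quantile normalization (0.122). Single pairs with liver were called for heart (heart minus liver -0.93 ± 0.26, adjusted p = 0.03004, with 12.1% of all genes called) and for brain (-0.74 ± 0.26, adjusted p = 0.0452). Neighbours in the order liver, kidney, brain, heart did not pass the test, with -0.28 for kidney minus liver, -0.46 for brain minus kidney and 0.19 for brain minus heart. Neither pair was called without FFPE liver, without either heart library or under quantile normalization, and brain minus liver also not without either brain library (adjusted p = 0.0608 to 0.416).

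Against the other organs heart was -0.59 ± 0.21 for Mbd1 (unadjusted p = 0.0143, adjusted p = 0.198 by limma). No member was called in heart, where 2.14% of all genes were, and Mbd1 alone had an unadjusted p under 0.05. Among 5 genes of partners of MBD1, liver was higher for 2 and lower for 0, beside 11.8% of all genes called higher (median 0.24, with -0.10 over all genes tested). These were Suv39h1, a histone H3 lysine methyltransferase (1.09 ± 0.24, adjusted p = 0.00475), and Atf7ip, which links MBD1 to the methyltransferase SETDB1 (0.49). Atf7ip was also lower in brain (-0.88). Cfap53, which lies 362 bases from Mbd1, differed by 0.21 in liver (adjusted p = 0.534).

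**Figure D3:**
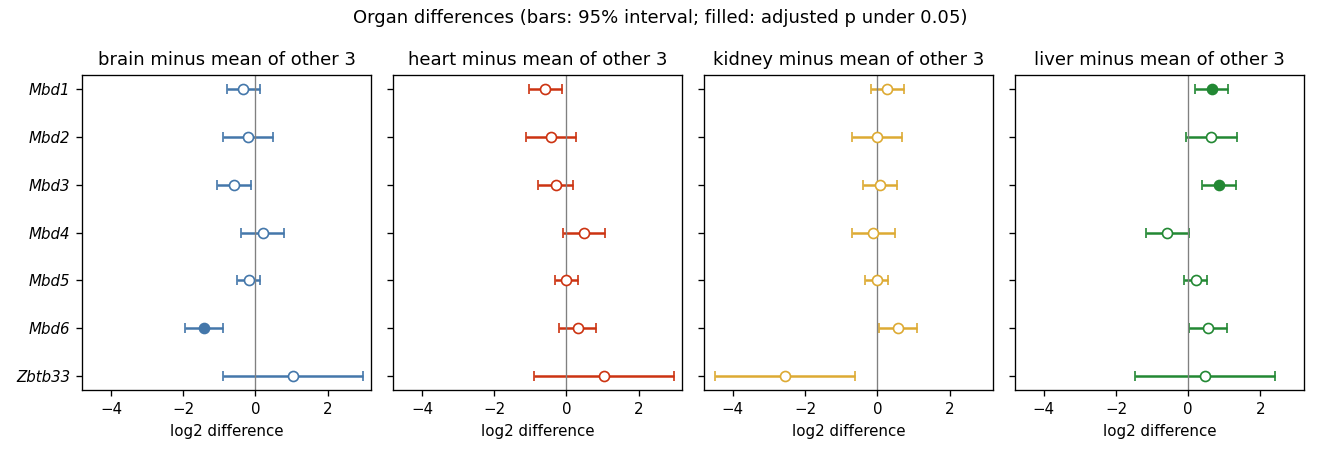
Log2 difference of each organ from the mean of the 3 others (x axis) for the 7 genes, with 95% intervals from limma; filled points passed the adjusted threshold of 0.05. Mbd6 in brain (-1.43) and Mbd3 and Mbd1 in liver (0.84 and 0.65) are filled, and Zbtb33 has the widest intervals.

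Mbd6 (Entrez 110962, chromosome 10, 127281956 to 127290869) had the lowest brain signal of the 7 genes relative to other organs. It carried 40 and 52 reads in frozen and FFPE brain, 122 and 94 in heart, 180 and 81 in kidney, and 120 and 155 in liver. That is 16.7 and 15.5 CPM in brain, against 42.8 and 37.3 in heart, 54.6 and 38.3 in kidney and 35.1 and 58.7 in liver. The brain libraries were nearly equal and well below all others. Brain was 2.69-fold lower than the other organs (-1.43 ± 0.25, limma adjusted p = 0.00111), at -1.37 in frozen and -1.49 in FFPE tissue. It was lower than each organ singly. Of the 16 alternative fits described at the end, 10 called the difference from heart, and 14 each those from kidney and liver. Brain minus heart was -1.30 (adjusted p = 0.0410, with 1.71% of all genes called), brain minus kidney -1.498 (0.00473, 16.1%) and brain minus liver -1.48 (0.00188). Heart, kidney and liver did not differ among themselves by the test, with 95% intervals of -0.83 to 0.44 for heart minus kidney, -0.82 to 0.46 for heart minus liver and -0.63 to 0.65 for kidney minus liver. The fall in brain was called in each of the 8 fits that leave out a library, from -1.60 to -1.26. The pair with heart was not called without either brain or either heart library (adjusted p = 0.169 to 0.363), the pair with kidney not without frozen brain (0.0516) and the pair with liver not without FFPE liver (-0.98, 0.0792).

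Mbd5 (Entrez 109241, chromosome 2, 48949499 to 49319688), whose protein shares the PR-DUB complex, was the steadiest gene. It carried 178 to 294 reads, and its level was 74.2 and 73.8 CPM in brain, 82.1 and 81.0 in heart, 78.6 and 84.1 in kidney, and 85.9 and 97.0 in liver. The brain libraries lay below and the liver libraries above all 6 others. The highest value was 1.31 times the lowest, while this ratio was 2.25 to 3.78 for the other MBD genes. Mbd5 also had the longest span (370 kb) and the most reads (1850 in sum) of the 7 genes. The part of these in its steadiness was not tested. No difference passed the test, and brain minus the others was -0.19 ± 0.15 (95% interval -0.51 to 0.13). Both brain libraries below all others were found for Mbd5 and Mbd6, 2 of 7, and for 11.7% of all genes tested. Both liver libraries above all others were found for Mbd3 and Mbd5, 2 of 7, and also for 11.7% of all genes.

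Of 9 genes of other PR-DUB proteins, 2 were lower in brain and 0 higher, beside 12.8% of all genes called lower (median -0.42, with 0.11 over all genes tested). These were Foxk1, a forkhead factor (-0.87 ± 0.14, adjusted p = 0.000779), and Asxl1, a cofactor of the deubiquitinase (-0.67). In liver Foxk1 (0.85), the deubiquitinase gene Bap1 (0.69) and Asxl1 (0.49) were higher, and Asxl3 was lower (-0.92 ± 0.16, adjusted p = 0.000940), so 4 of 9 were called beside 19.2% of all genes.

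The promoters of Mbd6 and Mbd5 are shown side by side because these related genes differed in how their signal varied between organs. Mbd6 has 2 overlapping entries, both inside the span of the gene, of which the upstream is printed (chr10:127288969-127289268, minus strand). Mbd5 has 1 at the start of the gene (chr2:48949258-48949557, plus strand) and 1 inside it (chr2:49245650-49245949, plus strand). Capitals again mark CG.
Mbd6: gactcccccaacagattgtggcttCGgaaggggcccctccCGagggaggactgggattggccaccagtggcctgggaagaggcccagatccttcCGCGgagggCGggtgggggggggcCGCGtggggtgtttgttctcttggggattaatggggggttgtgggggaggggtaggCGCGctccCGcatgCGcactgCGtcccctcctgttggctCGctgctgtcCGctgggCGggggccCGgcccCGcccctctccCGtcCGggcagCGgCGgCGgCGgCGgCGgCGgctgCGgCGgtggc
Mbd5 at the start of the gene: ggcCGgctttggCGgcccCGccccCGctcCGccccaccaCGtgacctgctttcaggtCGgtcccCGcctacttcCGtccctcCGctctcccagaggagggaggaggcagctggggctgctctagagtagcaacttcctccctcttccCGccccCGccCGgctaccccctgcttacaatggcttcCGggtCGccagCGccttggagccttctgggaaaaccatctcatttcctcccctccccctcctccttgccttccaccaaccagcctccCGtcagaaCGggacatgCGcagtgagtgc
Mbd5 inside the gene: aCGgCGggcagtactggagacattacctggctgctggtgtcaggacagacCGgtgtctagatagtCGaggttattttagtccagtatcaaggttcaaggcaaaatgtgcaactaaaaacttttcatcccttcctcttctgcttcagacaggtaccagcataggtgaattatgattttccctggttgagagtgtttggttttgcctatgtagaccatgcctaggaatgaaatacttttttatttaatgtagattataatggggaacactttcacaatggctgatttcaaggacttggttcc
They hold 28, 19 and 4 CG, and 85.8%, 71.9% and 31.4% of all promoters hold fewer. The other entry of Mbd6 holds 44 (97.8%). The median over all promoters is 7.

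Mbd6 touches a gene at each end. Dctn2, a dynactin subunit gene, overlaps it by 4 bases, and Ddit3, which encodes the stress factor CHOP, by 77 bases. Dctn2 had 14 and 28 reads in frozen and FFPE brain, 65 and 23 in heart, 71 and 33 in kidney, and 39 and 50 in liver, and its brain difference was -1.15 ± 0.42 (limma adjusted p = 0.0605). Ddit3 had 26 and 61 reads in brain, 33 and 40 in heart, 18 and 61 in kidney, and 161 and 112 in liver. It was higher in liver (1.72 ± 0.39, adjusted p = 0.00613), while its brain difference was -0.48 (adjusted p = 0.388). Mbd6 in liver was 0.55 ± 0.25 above the others (adjusted p = 0.131). The material at hand does not say how reads in such overlaps were assigned.

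Mbd4 (Entrez 17193, chromosome 6, 115840697 to 115853400) was the only member with its lowest organ mean in liver. It carried 52 and 117 reads in frozen and FFPE brain, 93 and 79 in heart, 93 and 41 in kidney, and 74 and 41 in liver. In CPM this was 21.7 and 34.9 in brain, 32.6 and 31.4 in heart, 28.2 and 19.4 in kidney, and 21.6 and 15.5 in liver. Frozen brain was level with frozen liver, so the organs overlapped. Liver minus the others was -0.58 ± 0.28 (95% interval -1.17 to 0.014, limma adjusted p = 0.164), and no organ was called. Over the 8 libraries its log2 values ran against those of Mbd1 (Pearson's r = -0.85), Mbd5 (-0.69) and Mbd3 (-0.51). These correlations are descriptions over 8 points that share organs and depth. Among the genes of 8 repair partners, which act with MBD4 on mismatched bases, 1 was lower in brain, beside 12.8% of all genes (Tdg, the other thymine DNA glycosylase, -0.48 ± 0.15, adjusted p = 0.0341) and 0 were called in liver. Ift122, a cilium gene that overlaps Mbd4 by 22 bases, had a liver difference of 0.53 ± 0.19 (adjusted p = 0.0587), while that of Mbd4 was below 0.

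Zbtb33, the Kaiso gene on the X chromosome (Entrez 56805, 38189793 to 38197046), had the fewest reads. They numbered 16 and 15 in frozen and FFPE brain, 15 and 14 in heart, 0 and 10 in kidney, and 9 and 16 in liver. In CPM the 7 libraries with reads held 2.63 (frozen liver) to 6.67 (frozen brain). For the 0 reads of frozen kidney a fixed 1-sided limit of 3 reads was used, which is 0.911 CPM there. The read-count 95% interval lay above this in frozen liver (1.20 to 4.99 CPM) and in FFPE kidney (2.27 to 8.69 CPM). The kidney difference from the other organs was not called (limma adjusted p = 0.151), and it was -0.15 without the frozen kidney library. Without the FFPE kidney library it was called (adjusted p = 0.000763), with 1 kidney library at 0 reads. Fitted sizes that use the library with 0 reads depend on the offset of 0.5 reads and are not given as folds.

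Frozen kidney lacked reads on many genes of like level. Of 3155 genes with a median of 10 to 20 reads in the 7 other libraries, 255 (8.08%) had 0 reads in frozen kidney. The same share, taken for each other library in turn, was 0.0959% (frozen heart) to 4.53% (FFPE liver). On the X chromosome 16.7% of 1169 genes had 0 reads in frozen kidney, and 4.79% to 12.8% in the others. X-linked genes took 1.72% of all reads in frozen kidney (exact Clopper-Pearson 95% interval 1.71% to 1.73%) and 1.48% to 1.65% in the other libraries. A list of 6 Y-linked genes had 192 to 414 reads in sum in each library. The part of these library differences in the value of Zbtb33 was not tested.

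The promoter of Zbtb33 is shown as the most CG-rich start among the genes with 1 matched entry (chrX:38189543-38189842, plus strand, capitals mark CG).
Zbtb33: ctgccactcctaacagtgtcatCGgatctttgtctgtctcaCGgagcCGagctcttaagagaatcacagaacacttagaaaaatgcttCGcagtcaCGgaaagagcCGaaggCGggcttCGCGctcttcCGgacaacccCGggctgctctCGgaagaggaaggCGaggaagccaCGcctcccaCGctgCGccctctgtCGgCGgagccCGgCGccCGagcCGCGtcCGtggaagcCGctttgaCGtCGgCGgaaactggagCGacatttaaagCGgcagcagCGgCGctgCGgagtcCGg
It holds 34 CG, more than 92.3% of promoters. The end of the gene overlaps Tmem255a by 474 bases, and Tmem255a had 59 reads in frozen kidney and 18 to 72 in the 7 other libraries. These reads cannot be placed within Tmem255a.

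Among genes of Kaiso partners, Ncor1, which encodes a corepressor, was lower in brain (-0.57 ± 0.14, limma adjusted p = 0.0100), and so was Ctnnd1, the catenin p120 that binds Kaiso (-0.45 ± 0.15, adjusted p = 0.0461). Of 4 other readers of methylated DNA, Zbtb38 and Zbtb4, the zinc finger relatives of Kaiso, were lower in brain (-0.80 and -0.56) and higher in liver (0.73 and 0.59), and Uhrf1 and Uhrf2 were not called. That is 2 of 4 in each, beside 12.8% of all genes lower in brain and 11.8% higher in liver. Of 6 genes with an MBD-like domain or origin, Baz2b alone was called (-0.56 in brain and 0.54 in liver), beside 21.4% and 19.2% of all genes called in these organs.

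No member was called for FFPE against frozen tissue by limma, 0 also at an unadjusted p under 0.05, beside 1.35% of all genes called. The differences ran from -0.09 ± 0.24 (Mbd4) to 0.32 ± 0.19 (Mbd3, 95% interval -0.09 to 0.73), leaving out Zbtb33, whose value rests on the library with 0 reads. Within single organs, which allow no test, the read-count intervals of the FFPE and the frozen library lay apart in 6 of 28 cases, near the 17.6% found over all genes tested. Mbd3 and Mbd4 were higher in FFPE than in frozen brain by 0.78 and 0.68, and Mbd1 and Mbd6 higher in FFPE than in frozen liver by 0.61 and 0.74. Mbd2 was lower in FFPE than in frozen kidney (-1.04), and Zbtb33 had 0 reads in frozen kidney. Mbd5 differed by at most 0.18 in any organ. For Mbd2 the mean size of the preservation difference was 0.61, close to its span between organ means of 0.80, while for Mbd6 it was 0.389 against 1.498. Kidney against the other organs gave 0 calls among the 7 (2 at an unadjusted p under 0.05, Mbd6 and Zbtb33), beside 1.46% of all genes. Among organ pairs, heart minus kidney called 0 of 7 (2 at an unadjusted p under 0.05, 2.47% of all genes called) and kidney minus liver 0 of 7 (0 and 1.9%).

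**Figure D4:**
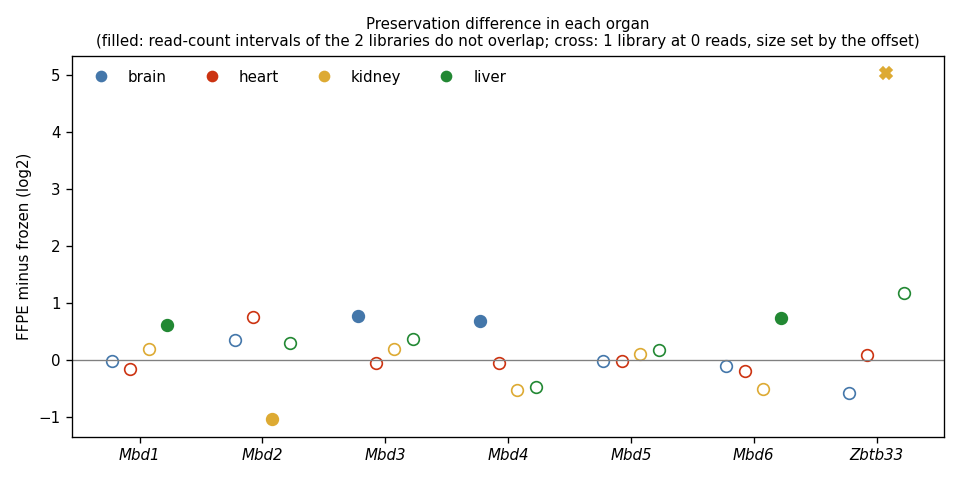
FFPE minus frozen log2 signal (y axis) of each gene (x axis) in the 4 organs; filled points mark read-count 95% intervals that do not overlap, and the cross marks a pair with 0 reads in frozen kidney, whose size depends on the offset. Mbd5 stays within 0.18 of 0, and the points of Mbd2 run from -1.04 to 0.76.

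Genes with the most similar pattern over the 8 libraries were ranked by Pearson's r of log2 values, among 11798 genes of at least median signal. For Mbd6 these were Serinc1 (0.987), Zfp638 (0.979) and Fbxo27 (0.979), for Mbd3 Dnajc16 (0.990), Rims2 (0.982) and Sfxn1 (0.981), and for Mbd1 Picalm (0.979), Skp2 (0.978) and Perm1 (0.977). Serinc1 lies on chromosome 10 as Mbd6 does, and the other 8 lie on other chromosomes than the gene they resemble. For Mbd5 these were Samd14 (0.992), Bcl3 (0.979) and Arhgef40 (0.974), and for Mbd4 Exoc5 (0.977), Mipol1 (0.964) and Slc9a3 (0.944). Zbtb33 was most like Zfp280d (0.987), Tmem116 (0.974) and Lnpep (0.966), and Mbd2 most like Gfi1b (0.968), Mgme1 (0.944) and Prdm16 (0.933). These values are a description over 8 libraries that share organs and scaling. Those of Zbtb33 include frozen kidney, where it had no reads and its log2 value of -2.72 is set by the offset. In the other libraries its log2 values ran from 1.47 to 2.78. Likeness to Zbtb33 without frozen kidney was not tested. Among the 7 genes themselves, r was highest for Mbd3 and Mbd5 (0.84) and for Mbd1 and Mbd3 (0.80).

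**Figure D5:**
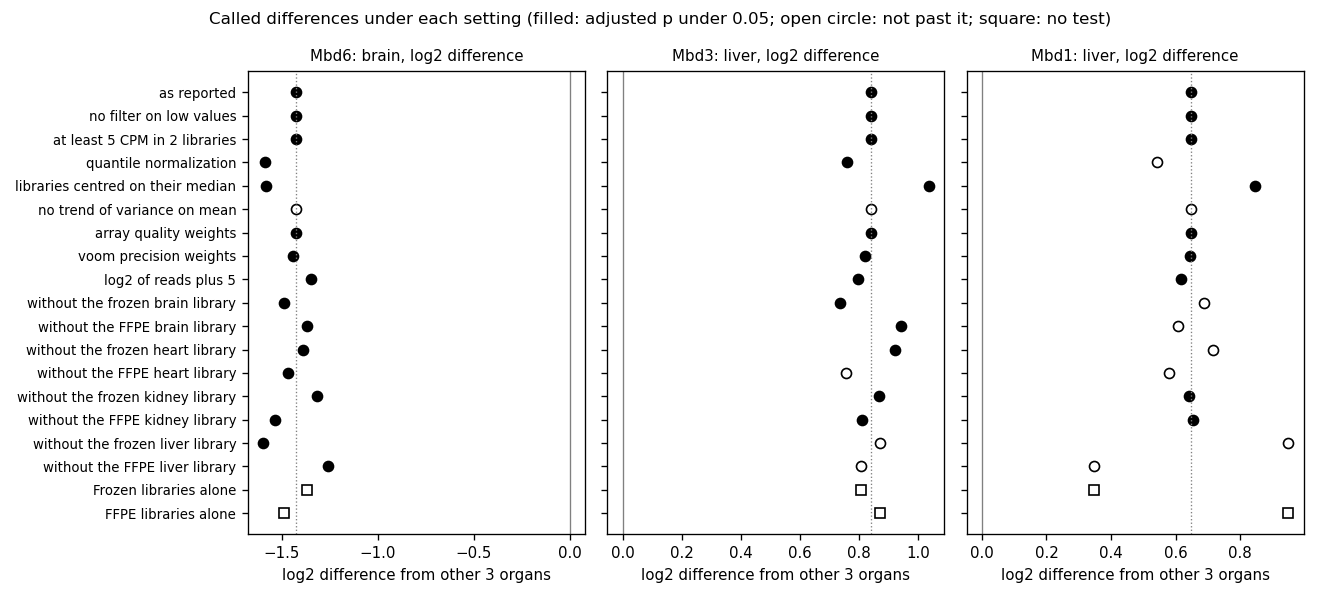
Log2 difference from the 3 other organs (x axis) of the 3 called results under each processing setting (y axis); filled circles passed the adjusted threshold of 0.05, open circles did not, and squares have no test. Mbd6 in brain is filled under 15 of the 16 alternatives, and Mbd1 in liver under 8.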

How the data were processed

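MeDIP-seq of 4 mouse organs in 2 preservations was used as the authors' deposited table. The authors' deposited log2 values are CPM, reads scaled to a common library size, with 0.5 reads added first, as the values themselves show. The submitters' processing notes name alignment to mm10 with Bowtie2, counting with featureCounts, and limma. For versions, the counted feature, strand, reads with several matches and pooling of replicates: not given in the sources used here. Undoing the log2 and the scaling gave whole reads for every value, within 1e-04 of the count, or of 1 read for lower counts. This check is therefore loose for large counts. The reads served for counts, CPM, exact Poisson 95% intervals, which are 2-sided, and a fixed 1-sided limit of 3 reads for a count of 0. PCR copies are not separate molecules, so the intervals and the limit cover counting error only. Input columns were not analysed here.

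R 4.3.3 with limma 3.58.1 fitted organ plus preservation (5 coefficients, 3 residual degrees of freedom, a mean of 13.1 prior degrees of freedom, variance trend on the mean) to 25982 genes, after 1197 under 1 CPM in 2 libraries were removed. Positions came from RefSeq (GRCm38.p6, the assembly of mm10), matched by Entrez ID for 25275 of 27179 genes. Neighbours are genes within 5 kb, added after the data were seen. Gene spans were not used to compare levels between genes, because the counted feature is unknown.

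All 7 genes are named throughout, and from each list up to 4 called genes with the smallest p, except that for the Kaiso partners the list's counts and 1 gene are not reported here. Likeness names the 3 genes of highest r per member, after unnamed gene models, clones, pseudogenes and genes of small RNAs were set aside. The members and lists were chosen with earlier results of these data known.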

Additional observations from a re-analysis of the deposited data

How the results depend on the processing

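Besides the fit as reported, 16 alternatives were tested: 8 leave out a library and 8 change the filter, the scaling, the variance model or the added reads. Frozen or FFPE libraries alone give values with no test. No paired analysis was possible because the columns carry no replicate number. The fall of Mbd6 in brain was called in 15 of 16 (-1.60 to -1.26), the rise of Mbd3 in liver in 12 (0.74 to 1.04) and that of Mbd1 in 8 (0.35 to 0.95), all with the same sign. Without the variance trend no member was called in brain (0), liver (0) or between organs (0), and for these comparisons limma called 0 of the 25982 genes, with 7872 in brain and 7101 in liver at an unadjusted p under 0.05 (adjusted p of Mbd6 in brain 0.0800).

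Members called in brain numbered 2 with centred libraries (24.9% of all genes called) and 2 with array weights (32.0%), against 1 as reported (21.4%). In liver quantile normalization left 1 of 2, and for any organ difference 1 of 3, while 9.65% of all genes were called in liver (2507 against 4985) and 20.1% for any organ difference. Leaving out a library gave 1 to 3 members in brain (2.87% to 35.2% of all genes). In heart it gave 0 to 0 (0.0154% to 8.09%), and in kidney 0 to 1 (0.0924% to 14.6%). In liver it gave 0 to 4 (5.65% to 28.0%), and for any organ difference 1 to 5 (11.5% to 46.8%). For preservation it gave 0 to 0 (0.662% to 1.74%). The shares over all genes thus moved too. The counts of 0 in heart and for preservation stand beside low shares and do not set the members apart from all genes. The libraries whose removal added member calls were the kidney libraries. Without frozen kidney, Mbd2 (0.89) and Mbd6 (0.66) were also higher in liver and Mbd3 lower in brain (-0.58). Without FFPE kidney, Mbd3 was lower (-0.64) and Zbtb33 higher in brain. That fit holds kidney as the frozen library alone, where Zbtb33 had no reads and its value is set by the offset. With all libraries, brain minus heart was 0.01 and brain minus liver 0.44 for Zbtb33, and neither was called. The added call of Zbtb33 thus does not show brain above heart or liver. With centred libraries the median over all genes was 0.096 in liver (-0.10 as reported) and -0.04 in brain (0.11), and there Mbd6 in liver (0.75) and Mbd3 in brain (-0.76) were called. No called difference changed sign. Of 562 values of the 32 differences not called, 55 had the other sign, with neither value past the threshold. Depth limits Zbtb33 most, with 0 to 16 reads per library. Why a setting moved a call was not tested.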
